A study of Sus scrofa with 24 samples.

Results

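Glycolysis splits glucose into pyruvate in the cytosol, and the citric acid cycle burns the acetyl units made from pyruvate in mitochondria. Between them stand lactate dehydrogenase, which interconverts pyruvate and lactate, and the pyruvate dehydrogenase complex and pyruvate carboxylase, which pass pyruvate into the cycle. The brain runs mainly on glucose, and its neurons and astrocytes use different isoenzymes for several of these steps. The genes described here encode enzymes of these pathways and were chosen by symbol from a list of 33. Of the 33, 32 were found among the 38882 genes counted, and ALDOA, a muscle-type aldolase, was not analysed here.

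Hippocampal poly(A) RNA was sequenced from 24 piglets of a PIC Camborough dam and PIC 359 sire cross at postnatal day 14, with 6 piglets in each of 4 groups. Piglets were small (SGA) or appropriate (AGA) for gestational age by weight near birth, and received either a control formula (CON), whose fat is triglyceride oil, or a hydrolyzed fat formula (HF) with soy free fatty acids, monoacylglycerol palmitate, soy lecithin and cholesterol. All piglets had colostrum on the farm before formula feeding began, so no group was free of maternal milk. An SGA and an AGA piglet of the same sex and litter shared each diet, which gave 12 litters, 6 on each diet, and the litters came in 2 cohorts of 6. Replicates 1 to 3 of each group belong to the first cohort and 4 to 6 to the second. SGA here is natural runting within a litter, and every litter received only 1 diet.

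Reads on the listed genes numbered 6017336 to 9284355 per library. The tissue was checked against marker genes. PROX1, a transcription factor of dentate granule cells, lay between 37.1 and 64.3 CPM (read counts scaled to library size), whereas ZBTB20, another hippocampal factor, had at most 1 read in a library in these gene models. With WFS1 and CALB1 added, the 4 hippocampal markers summed to 42.4 to 66.9 CPM. PROX1 made up most of that sum, so the check rests mainly on 1 gene. The 6 neuronal markers (SNAP25, SYT1, STMN2, NEFL, NEFM and SYN1) summed to 3617 CPM in AGA CON replicate 2 and 4482 CPM in AGA HF replicate 4, against 6058 to 8382 CPM in the other 22 libraries. The 6 astrocyte markers (GFAP, AQP4, SLC1A2, SLC1A3, GJA1 and ALDH1L1) were highest in the same 2 libraries, at 12664 and 12257 CPM against 7684 to 10754 CPM elsewhere. The 4 pituitary markers summed to 369 CPM in SGA HF replicate 4 and to 19.2 to 37.0 CPM elsewhere. In tissue RNA of this kind, fewer cells of a type and less RNA per cell cannot be told apart.

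Transcripts of the 32 enzymes were abundant. They made up between 1.19 and 1.84% of the CPM of a library, and all 32 passed the filter of at least 1 CPM in at least 3 libraries. Per kilobase of counted exon (RPKM, CPM divided by the length of the gene model), the glycolytic genes stood highest. GAPDH, which oxidizes glyceraldehyde phosphate, averaged 3022 ± 351 RPKM (SD, n = 24). ALDOC, the brain aldolase that is typical of astrocytes, averaged 1373 ± 124 RPKM, and TPI1, which interconverts the triose phosphates, averaged 942 ± 113 RPKM. The 6 genes from GAPDH to PKM held 54.1% of the summed RPKM, the 7 genes from HK1 to TPI1 32.7%, and the 12 cycle genes 8.04%. The levels per kilobase rest on gene models of Sscrofa10.2 that are short for some genes, such as GAPDH (657 bp), CS (864 bp) and MDH1 (496 bp). The order between genes is therefore less certain than the comparison of 1 gene between piglets. The paper gives RNA quality only as an average over the samples, and its part in these levels was not tested.

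**Figure D1:**
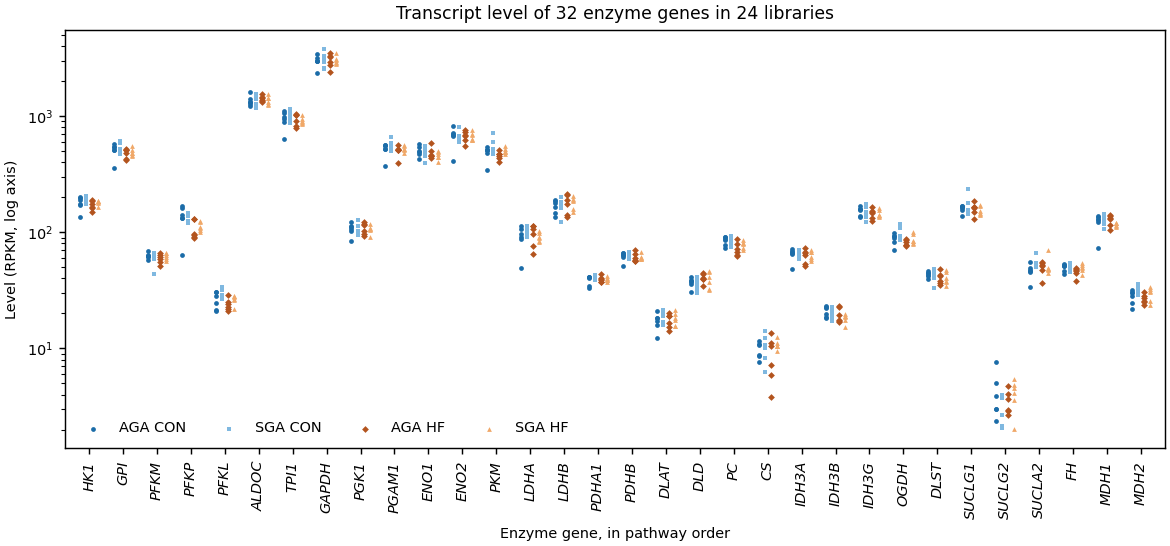
Level of each enzyme gene (RPKM, logarithmic axis) in each of the 24 libraries, in pathway order, with colour and marker shape for the 4 groups. Gene means run from 3022 RPKM for GAPDH to 3.70 RPKM for SUCLG2, and the 4 groups overlap for the genes.

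The first step of glycolysis was carried mainly by HK1, the common brain hexokinase, at 181 ± 16.2 RPKM. GPI, which turns glucose phosphate into fructose phosphate, was at 504 ± 55.5 RPKM. Phosphofructokinase, the main control point of glycolysis, has 3 subunit genes. PFKP, the platelet-type subunit, held the greatest share of their summed RPKM in all 24 libraries, with a median of 58.8% and a range of 44.6 to 64.7%. PFKM, the muscle-type subunit, held a median of 28.7% (20.4 to 40.4%), and PFKL, the liver-type subunit, 12.8% (9.58 to 15.4%). These shares rest on gene models of 1614 bp for PFKP, 2284 bp for PFKM and 2815 bp for PFKL. Before division by length the means were 195, 139 and 74.4 CPM. In CPM, PFKM exceeded PFKP in AGA CON replicate 2 and AGA HF replicate 3, so the order in all libraries holds per kilobase only. The lowest PFKP share and the highest PFKM share belonged to the same library, AGA CON replicate 2.

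Later in glycolysis, PGK1 and PKM make ATP, and PGAM1 and the enolases stand between them. PGK1 averaged 107 ± 10.6 RPKM, PGAM1 528 ± 57.6 RPKM and PKM, the pyruvate kinase of brain, 499 ± 67.3 RPKM. ENO2, the neuronal enolase, was at 668 ± 85.7 RPKM and ENO1, the general enolase, at 480 ± 49.2 RPKM. The ENO2/ENO1 ratio had a median of 1.45 over the libraries. In plain counts the median was 3.14, as the gene models are 2237 bp for ENO2 and 1030 bp for ENO1. Per kilobase the ratio was 0.847 in AGA CON replicate 2 and 0.934 in AGA HF replicate 4, the only libraries with a value below 1. The SGA piglet had the higher ENO2/ENO1 ratio in 7 of 12 litters, and the mean log2 difference of 0.07 was smaller than its SD of 0.22.

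LDHB, the subunit that favours lactate use, averaged 173 ± 25.2 RPKM, and LDHA, the subunit that favours lactate production, ran from 49.3 to 114 RPKM with a median of 97.2. Their ratio ran from 1.25 to 2.75 with a median of 1.79, and the group medians were 1.86 in AGA CON, 1.81 in AGA HF, 1.68 in SGA CON and 2.05 in SGA HF. These ranges overlapped. In plain counts the median ratio was 0.827, on the other side of 1. The order of the 2 genes thus rests on their gene models, 1078 bp for LDHB and 2337 bp for LDHA. The SGA piglet had the higher LDHB/LDHA ratio in 7 of 12 litters, with a mean log2 difference of -0.06 ± 0.41 (SD). A further gene with the symbol LDHB, with a single exon, had no reads in any library.

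Of the genes that pass pyruvate into the cycle, PC, pyruvate carboxylase of astrocytes, averaged 79.3 ± 8.39 RPKM. The pyruvate dehydrogenase subunits PDHB and PDHA1 averaged 61.4 and 39.7 RPKM, and their partners DLD and DLAT 38.0 and 17.7 RPKM. PDHA1 had the smallest spread of the 32 genes, with a coefficient of variation of 6.29% over the 24 libraries, against a median of 11.8%.

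In the cycle itself, SUCLG1, the shared subunit of succinyl-CoA synthetase, was highest at 162 ± 20.7 RPKM, followed by IDH3G, a subunit of isocitrate dehydrogenase, at 148 ± 13.8 RPKM. SUCLA2, the ATP-forming partner of SUCLG1, was at 50.6 ± 7.63 RPKM and SUCLG2, the GTP-forming partner, at 3.70 ± 1.27 RPKM. The SUCLA2/SUCLG2 ratio was above 1 in every library, with a median of 14.5 and a range of 4.47 to 31.6. The lowest value was again in AGA CON replicate 2. CS, citrate synthase, was low at 9.85 ± 2.45 RPKM. Its gene model is short (864 bp), so its level beside the other cycle genes is uncertain. CS and SUCLG2 had the fewest reads and the widest spread of the 32 genes, with coefficients of variation of 24.8 and 34.3%.

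For each gene the 24 libraries were compared with the median of that gene. In AGA CON replicate 2 only 3 of the 32 genes were above their median, and 18 were at the lowest value of all 24 libraries, against 12.3% of all genes tested. The 18 lay along the whole route, from HK1, GPI and PFKP over GAPDH, ENO2 and PKM to OGDH, SUCLA2, MDH1 and MDH2. PC and SUCLG2 went the other way and were among the higher values there. AGA HF replicate 4, which also had few neuronal transcripts, had 5 of 32 genes above their median. At the other end stood AGA CON replicate 1 with 26 and SGA CON replicate 4 with 25. By group, the number ranged from 3 to 26 in AGA CON, 5 to 20 in AGA HF, 14 to 25 in SGA CON and 7 to 20 in SGA HF. The part of neuronal and astrocyte content in these numbers was not tested.

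**Figure D2:**
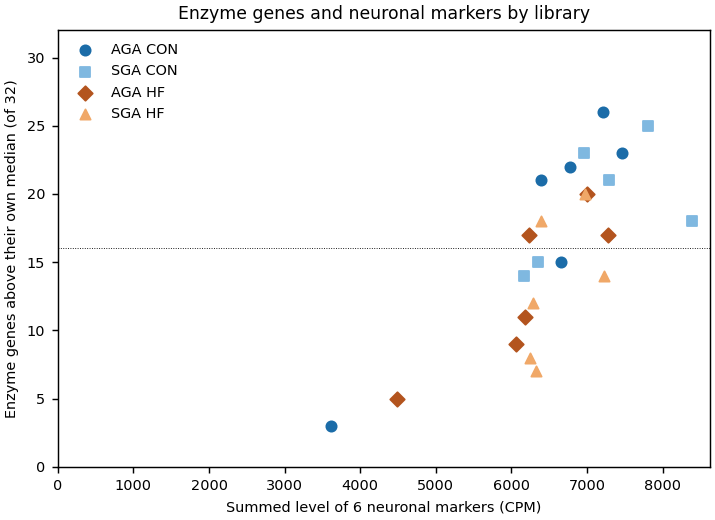
Number of the 32 enzyme genes above their own median (y axis) against the summed CPM of 6 neuronal markers (x axis), 1 point per library, with colour and marker shape for the group. AGA CON replicate 2 (3 genes, 3617 CPM) and AGA HF replicate 4 (5 genes, 4482 CPM) stand apart at the lower left.

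The main effect of size compares SGA with AGA piglets over both diets. No enzyme gene was a differentially expressed gene (DEG), defined as a false discovery rate (FDR) under 0.4 over all genes and the 7 contrasts in edgeR's quasi-likelihood test, where 0.478% of the 16326 genes tested were. At an unadjusted p under 0.05 there were 3 genes, all higher in SGA, PKM, OGDH and SUCLA2, against 10.6% of all genes in either direction (5.6% higher and 4.95% lower). DESeq2 and limma voom also made 0 calls for size, and with the FDR taken over this contrast alone PKM and SUCLA2 were called, against 7.35% of all genes. The cell type markers were read for size as well. Of the 6 neuronal markers 5 were above 0 in SGA (median 0.07), 2 of them at an unadjusted p under 0.05 and 1 called (edgeR FDR 0.395). All 6 oligodendrocyte markers were below 0 (median -0.17, range -0.52 to -0.09), 1 of them under 0.05. Astrocyte and microglial markers had 4 of 6 below 0 each (medians -0.03 and -0.02), and 3 of 4 endothelial markers were above 0 (median 0.08), with 0 under 0.05 in these 3 lists. Their part in the values of the enzymes was not tested. The median log2 fold change of the 32 genes was 0.03, with 19 above 0 and 13 below, while 49.2% of all genes were above 0.

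PKM, the last enzyme of glycolysis (chromosome 7, 65514303 to 65575391, plus strand, Sscrofa10.2), ranged from 1920 to 3013 CPM with a median of 2808 in AGA CON and from 2249 to 2851 with a median of 2563 in AGA HF. In SGA CON it ranged from 2591 to 3939 CPM with a median of 2880, and in SGA HF from 2592 to 3036 with a median of 2729. The groups overlapped, and the highest value was in SGA CON replicate 6. The log2 fold change of PKM for size was 0.09 ± 0.03 (SE), with an unadjusted p of 0.00521 and an FDR of 0.542 from edgeR. The SGA piglet was higher in 7 of 12 litters, with an exact sign-flip p of 0.0288 over the litters and a Benjamini-Hochberg value of 0.326 over all genes.

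OGDH, which turns oxoglutarate into succinyl-CoA (chromosome 18, 55497953 to 55588004, minus strand), had medians of 384 CPM in AGA CON (301 to 421), 341 in AGA HF (325 to 369), 391 in SGA CON (361 to 496) and 356 in SGA HF (339 to 425). All 4 ranges of OGDH overlapped. Its log2 fold change for size was 0.10 ± 0.05 (SE), with an unadjusted p of 0.0337 and an FDR of 0.696 from edgeR. OGDH was higher in the SGA piglet in 9 of 12 litters, with the smallest exact sign-flip p of the 32 genes, 0.0186.

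SUCLA2 (chromosome 11, 20069114 to 20123461, plus strand) had medians of 100.1 CPM in AGA CON (72.6 to 118), 111 in AGA HF (79.0 to 119), 115 in SGA CON (108 to 141) and 104 in SGA HF (94.9 to 151). The 2 highest SUCLA2 values came from SGA piglets, SGA CON replicate 4 and SGA HF replicate 3. Its log2 fold change for size was 0.17 ± 0.07 (SE), with an unadjusted p of 0.0278 and an FDR of 0.676 from edgeR, and SGA was higher in 8 of 12 litters. Within CON alone the SUCLA2 difference was 0.24 ± 0.10 (SE, unadjusted p = 0.0208, FDR 0.653 by edgeR), and within HF it was 0.09 ± 0.10 (SE), while the interaction had an unadjusted p of 0.261. Over the litters the exact sign-flip p of SUCLA2 for size was 0.0972. Its values leaned on litter 5, which holds SGA HF replicate 3. Without that litter the size difference of SUCLA2 was 0.11 ± 0.06 (SE, no longer under 0.05), the difference within HF was -0.03 ± 0.08 and the interaction -0.28 ± 0.11 (SE, FDR 0.436 by edgeR). HF against CON in SGA was then called for SUCLA2, at -0.23 ± 0.08 (SE, FDR 0.349), against 2.39% of all genes.

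Compared litter by litter, 4 of the 32 genes had an exact sign-flip p under 0.05 for size, against 12.6% of all genes. They were OGDH, PKM, PFKL and MDH2, and their mean log2 differences were all positive. Their Benjamini-Hochberg values over all genes ran from 0.288 (OGDH) to 0.391 (MDH2), under 0.4. These values cover this 1 test, whereas the FDR of a DEG covers 7 contrasts. The share of all genes under 0.4 in this test is not given here. PFKL was higher in the SGA piglet in 9 of 12 litters (mean 0.17 ± 0.22 SD, exact p = 0.0278), and MDH2, the mitochondrial malate dehydrogenase, in 8 of 12 (mean 0.19 ± 0.29 SD, exact p = 0.0483). None of the 32 genes went in 1 direction in at least 10 litters, which 8.67% of all genes did. With litter as a replicate block in edgeR, PFKL, PKM, OGDH, SUCLA2 and MDH2 were under 0.05, 5 genes in place of 3, beside 12.4% of all genes, and 0 were DEGs, beside 2.57%. In litter 4, which holds AGA CON replicate 2, 29 of the 32 genes were higher in the SGA piglet, and in litter 7, which holds AGA HF replicate 4, 28 were. In the other 10 litters the number ran from 8 to 24. Without litters 4 and 7, 0 of the 32 genes had an exact p under 0.05, against 9.46% of all genes. These 2 litters were picked after their values were seen, so leaving them out lowers most of the mean differences by construction. That count shows how far the 2 litters weigh and is no test of size. Without AGA CON replicate 2 and AGA HF replicate 4, edgeR still had PKM, OGDH and SUCLA2 under an unadjusted 0.05, against 9.6% of all genes, and 0 DEGs, against 0.221%. Single litters and libraries also moved the calls for size. Without litter 5, PKM, OGDH, MDH2 and PGAM1 were DEGs, against 7.86% of all genes, and 6 genes were under 0.05, against 14.5%, with SUCLA2 no longer among them. Without litter 4 PKM was a DEG (3.29% of all genes), and so it was without AGA CON replicate 2 alone, where it was 0.11 ± 0.03 (SE, FDR 0.352 by edgeR), against 2.46% of all genes called and 9.86% under 0.05.

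**Figure D3:**
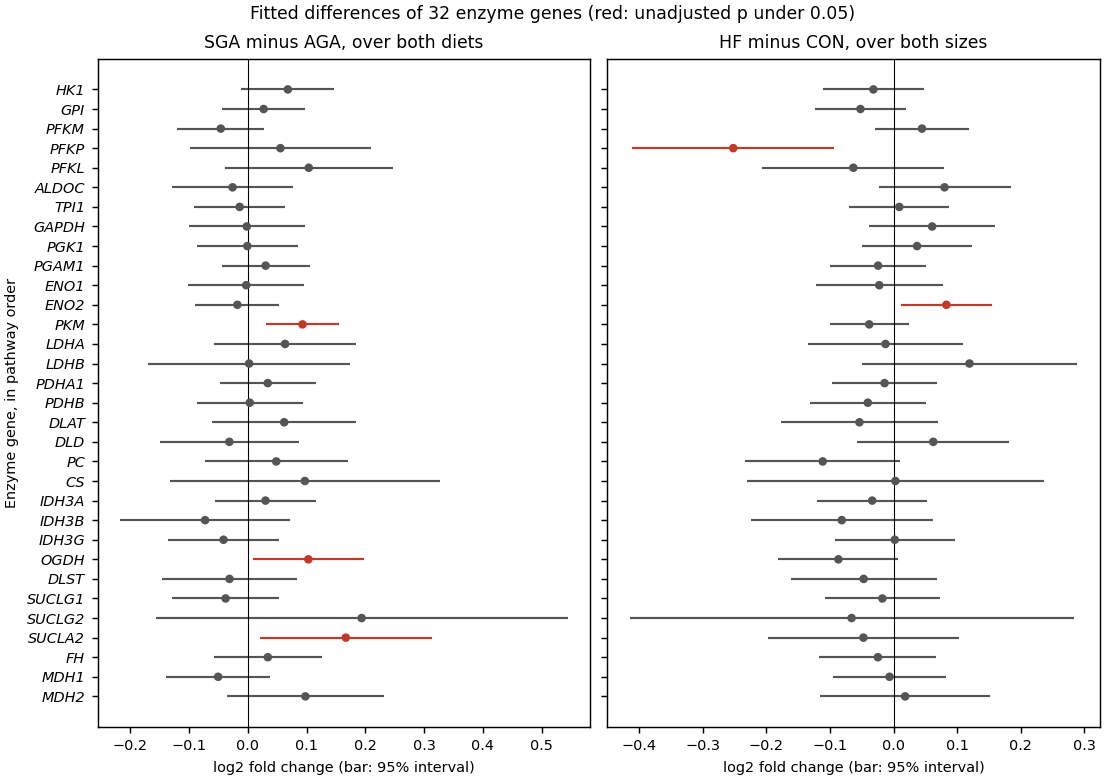
Log2 fold change (x axis) of each enzyme gene in pathway order (y axis) for SGA minus AGA (left) and HF minus CON (right), with bars for the 95% interval of the edgeR fit and red for an unadjusted p under 0.05. Apart from PKM, OGDH and SUCLA2 on the left and PFKP and ENO2 on the right, the bars reach across 0.

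The main effect of diet compares HF with CON over both sizes. No enzyme gene was a DEG in edgeR, where 0.159% of all genes were, and limma voom called 0. DESeq2 called 1, PFKP, against 0.539% of all genes. At an unadjusted p under 0.05 PFKP was lower on HF and ENO2 higher, against 7.09% of all genes in either direction (3.59% higher and 3.5% lower). The median log2 fold change of the 32 genes was -0.02, with 11 above 0 and 21 below, while 50.8% of all genes were above 0. Cell type markers were mostly below 0 on HF too, 5 of 6 each for neurons (median -0.05), astrocytes (-0.06), oligodendrocytes (-0.05) and microglia (-0.06). All 4 endothelial markers were below 0 (median -0.08), while 4 of 5 meningeal and all 3 blood markers were above 0. The part of the markers in the enzyme values for diet was not tested. In the comparison of the 6 HF with the 6 CON litter means, none of the 32 genes reached an exact permutation p of 0.05, against 4.1% of all genes, and the smallest was 0.0606, for PC. None had litter means that did not overlap between diets, against 0.172% of all genes. With the counts of littermates summed, edgeR had only PFKP under an unadjusted 0.05, against 3.46% of all genes.

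PFKP (chromosome 10, 73581212 to 73608200, minus strand) was between 102.5 and 270.1 CPM in AGA CON, with a median of 221. It was between 145 and 212 CPM in AGA HF (median 155), 195 and 237 in SGA CON (median 213), and 162 and 202 in SGA HF (median 178). AGA CON held both the highest and the lowest value of PFKP, and the lowest was replicate 2. Its log2 fold change for diet was -0.25 ± 0.08 (SE, 95% interval -0.41 to -0.09), with an unadjusted p of 0.00331 and an FDR of 0.495 from edgeR. That fit has no litter term, although every litter received only 1 diet. Over litter means the PFKP difference was -0.26, with an exact permutation p of 0.0758. In AGA piglets alone the PFKP difference was -0.33 ± 0.11 (SE, unadjusted p = 0.00443 by edgeR) and in SGA piglets -0.17 ± 0.10 (SE, unadjusted p = 0.109), and the interaction had a p of 0.252.

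PFKP was lower on HF with and without the library that stands apart, while the size of the difference and its FDR varied with the libraries kept. That library holds the lowest PFKP value, so leaving it out, alone or with its litter 4, raises the CON level of PFKP by construction. The values without it show how far it weighs and are no test of diet. Without AGA CON replicate 2, the other 5 AGA CON piglets lay between 213 and 270.1 CPM and did not overlap with AGA HF, and PFKP was the only 1 of the 32 genes of which that held (0.613% of all genes). The log2 fold change of PFKP for diet was then -0.35 ± 0.05 (SE), with an FDR of 0.0513 from edgeR, and in AGA piglets -0.48 ± 0.08 (SE), with an FDR of 0.0602. With AGA HF replicate 4 left out as well, the PFKP value for diet was -0.35 ± 0.06 (SE, FDR 0.284). In the first cohort alone it was -0.14 ± 0.15 (SE) and in the second -0.40 ± 0.09 (SE), in fits without surrogate variables. Without litter 4 PFKP was -0.34 ± 0.06 (SE), with an FDR of 0.0573 from edgeR, and without litter 5 -0.27 ± 0.07 (SE), with an FDR of 0.181.

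ENO2 (chromosome 5, 66236691 to 66245741, minus strand) had medians of 1562 CPM in AGA CON (927 to 1845), 1520 in AGA HF (1234 to 1706), 1427 in SGA CON (1329 to 1816) and 1470 in SGA HF (1397 to 1695). These ranges overlapped throughout. Its log2 fold change for diet was 0.08 ± 0.03 (SE), with an unadjusted p of 0.0253 and an FDR of 0.666 from edgeR. Over litter means the ENO2 difference was 0.03, with an exact permutation p of 0.818. Without AGA CON replicate 2, where ENO2 was lowest, the sign turned, to -0.04 ± 0.04 (SE).

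**Figure D4:**
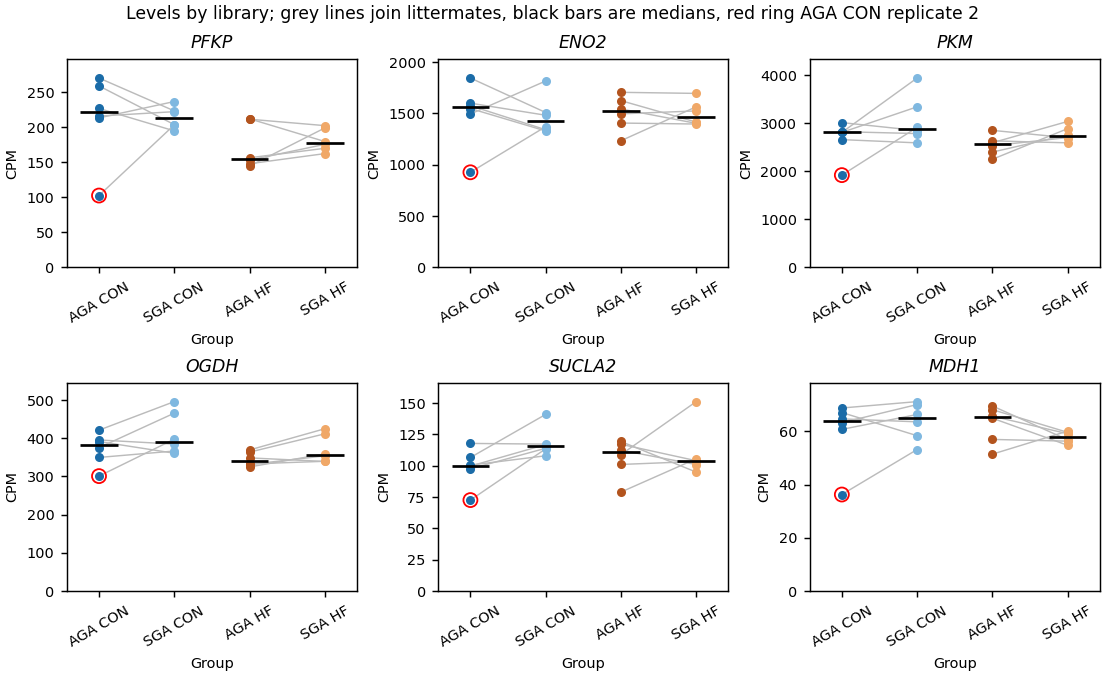
CPM (y axis, from 0) of PFKP, ENO2, PKM, OGDH, SUCLA2 and MDH1 in each library by group (x axis), with grey lines between littermates, black bars for group medians and a red ring around AGA CON replicate 2. The ringed library is the lowest of all 24 for each of the 6 genes, for example 102.5 CPM for PFKP.

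The diet comparison of the whole list also shifted with this library. Without AGA CON replicate 2, 27 of the 32 genes had a log2 fold change below 0 and 5 above, and the median was -0.07, while 50.2% of all genes were above 0. This library was singled out for its low values of these genes, so its removal raises the CON level of most of them by construction, and the counts without it describe how far it weighs and are no test of diet. Litters 4 and 7 were likewise picked after these values were seen. Litter 7 is an HF litter, so its removal acts on the HF level. The counts without both litters are no test of diet either. At an unadjusted p under 0.05 there were 11 genes, all lower on HF, against 10.5% of all genes in that fit, and 4 of them, PFKP, GPI, PKM and OGDH, were DEGs, against 2.65% of all genes. GPI was -0.13 ± 0.04 (SE, FDR 0.283 by edgeR), PKM -0.10 ± 0.03 (SE, FDR 0.320) and OGDH -0.12 ± 0.04 (SE, FDR 0.396). The other 7 were HK1, PFKL, PGAM1, LDHA, PC, DLST and MDH1. They spread over both pathways, with 6 of the 11 in glycolysis from HK1 to PKM and LDHA at the side branch. PC, OGDH and DLST act at or beyond the entry of pyruvate, and MDH1 is the cytosolic malate dehydrogenase. With AGA HF replicate 4 left out too, GPI, PFKP, PKM, PC and OGDH were lower on HF at an unadjusted p under 0.05 and ALDOC higher, 6 genes against 7.42% of all genes, and PFKP was the 1 DEG, against 0.0796%. Without litter 4 the DEGs for diet were PFKP, GPI, PKM and PGAM1, against 3.69% of all genes, and 11 genes were under 0.05, against 11.7%. Without litter 5 they were PFKP and PC, against 4.68%, and 6 genes were under 0.05, against 10.1%. With litters 4 and 7 left out, 9 of the 32 genes had an exact permutation p under 0.05 over the 10 litter means, against 6.32% of all genes. Of these, HK1, PFKP, PGAM1, PKM, PC, OGDH, MDH1 and MDH2 were lower on HF and DLD, shared by the pyruvate and oxoglutarate dehydrogenases, was higher. The sizes were small apart from PFKP (-0.33 on the log2 scale), which with PGAM1 had an exact p of 0.00794, the smallest that 252 permutations can give. They ran from -0.09 for HK1 to -0.19 for OGDH among the other 7 that were lower.

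**Figure D5:**
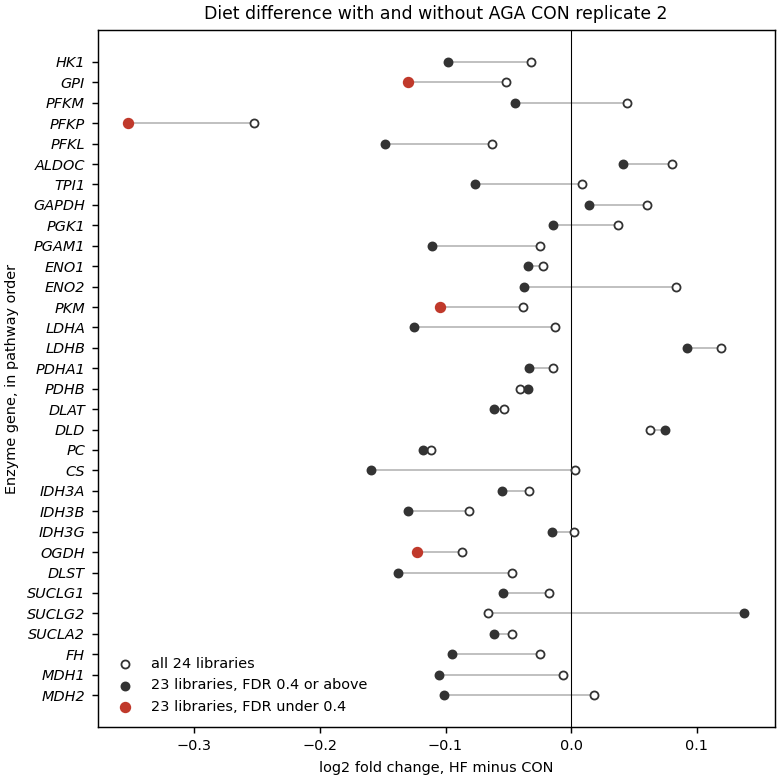
Log2 fold change for HF minus CON (x axis) of each enzyme gene (y axis) with all 24 libraries (open circles) and without AGA CON replicate 2 (filled circles, red for an FDR under 0.4). Most genes lie further to the left without this library, and PFKP moves from -0.25 to -0.35.

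In level, 22 of the 32 genes were higher in the second cohort, by up to 0.14 on the log2 scale (OGDH), and CS was lower by the most (-0.21). The litter means of the 2 cohorts overlapped for all 32 genes, while 1.1% of all genes had no overlap. For diet, the balance of signs was as follows, with AGA CON replicate 2 in the first cohort. In the first cohort 18 of the 32 genes were higher on HF and 14 lower, with a median of 0.01, and in the second 6 were higher and 26 lower, with a median of -0.08. Of all genes 52.7 and 50.3% were above 0. For size, 0 genes were at an unadjusted p under 0.05 in the first cohort and 5 in the second (PFKL, PGAM1, PKM, OGDH and MDH2), against 6.06 and 8.54% of all genes. For diet these were DLD and PC, 2 genes, in the first cohort and GPI, PFKP, PGAM1 and PKM in the second, against 6.6 and 5.38% of all genes. The difference between cohorts was not tested.

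The interaction asks whether the size difference depended on diet. No enzyme gene was a DEG in edgeR, against 0.049% of all genes, and only MDH1 was at an unadjusted p under 0.05, against 4.01% of all genes. MDH1, the cytosolic malate dehydrogenase of the malate-aspartate shuttle (chromosome 3, 82274663 to 82280460, minus strand), had medians of 64.0 CPM in AGA CON (36.3 to 68.8), 65.4 in AGA HF (51.5 to 69.6), 65.0 in SGA CON (53.2 to 71.2) and 58.0 in SGA HF (54.8 to 60.1). SGA HF was the lowest group by median and the tightest, and it overlapped with the other groups. The interaction of MDH1 was -0.21 ± 0.08 (SE) on the log2 scale, with an unadjusted p of 0.0155 and an FDR of 0.629 from edgeR. In edgeR fits MDH1 had an interaction of -0.12 ± 0.10 (SE, unadjusted p = 0.228, FDR 0.819) without AGA CON replicate 2 and of -0.21 with litter as a block (unadjusted p = 0.103), which left 0 genes under 0.05, against 3.73% of all genes. DESeq2 and limma voom made 0 calls for the interaction, with 2 and 1 genes under an unadjusted 0.05.

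In the pairwise comparisons no enzyme gene was a DEG in edgeR. SGA against AGA had 1 gene at an unadjusted p under 0.05 on CON (SUCLA2) and 2 on HF, where PKM was 0.12 ± 0.04 and MDH1 -0.16 ± 0.06 (SE), against 0.129 and 0.288% of all genes called and 6.59 and 8.02% under 0.05. HF against CON had 2 such genes in AGA, PFKP and PC, and 0 in SGA, against 0.0674 and 0.0919% of all genes called and 6.09 and 5.16% under 0.05. DESeq2 called 1 gene in AGA, against 0.355% of all genes. PC ranged from 161 to 202 CPM in AGA CON and from 139 to 191 CPM in AGA HF, and its difference was -0.20 ± 0.08 (SE, unadjusted p = 0.0226, FDR 0.659 by edgeR).

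The intervals set a limit on what could have gone unseen. For size, in the fit without litter, the 95% interval of 29 of the 32 genes lay within a 1.2-fold difference in either direction, against 40.2% of all genes, and the exceptions were CS, SUCLG2 and SUCLA2. With litter as a block 24 did, against 35.5% of all genes, and PFKP, PFKL, PKM, LDHA and MDH2 also reached past it. For diet, 29 did in the fit without litter, against 41.4%, and the exceptions were PFKP, LDHB and SUCLG2. Since every litter received only 1 diet, these diet intervals, taken over piglets, may be too narrow. The median distance from the estimate to the end of the interval was 0.10 on the log2 scale for the enzyme genes and 0.22 for all genes. For the interaction only 17 of 32 intervals were inside. These intervals are not adjusted for the number of genes.

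Around these enzymes, 63 further genes of carriers, regulators, other isoenzymes, the remaining cycle enzymes, shuttles and the pentose phosphate pathway were examined, of which 56 passed the filter. None was a DEG for size or diet in edgeR. For size, 3 of the 56 were higher and 3 lower in SGA at an unadjusted p under 0.05, beside 5.6 and 4.95% of all genes. GPD2, the mitochondrial glycerol phosphate dehydrogenase, was higher by 0.16 ± 0.05 (log2, SE), with an edgeR FDR of 0.524. ACO1, the cytosolic aconitase, was higher by 0.13 ± 0.05 and HKDC1, a hexokinase relative, by 0.40 ± 0.18. GPD1, the cytosolic partner of GPD2, was at -0.19 ± 0.08, the mitochondrial pyruvate carrier subunit MPC2 at -0.11 ± 0.05 and SDHD, an anchor of succinate dehydrogenase, at -0.18 ± 0.08. The FDRs of these 6 genes ran from 0.524 to 0.713. Compared litter by litter, HKDC1 had a mean log2 difference of 0.24 ± 0.73 (SD), with an exact sign-flip p of 0.281. By the same test p was 0.0288 for ACO1 and 0.0229 for MPC2.

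For diet, 2 of the 56 were higher and 4 lower on HF at an unadjusted p under 0.05, beside 3.59 and 3.5% of all genes. PDK4, a kinase that switches off pyruvate dehydrogenase, was at -0.34 ± 0.10 (log2, SE), with an edgeR FDR of 0.490, and PDK2, of the same family, at -0.11 ± 0.05. BSG, the chaperone of lactate carriers, was at -0.10 ± 0.04 and GPD2 at -0.11 ± 0.05. PDPR, a regulator of pyruvate dehydrogenase phosphatase, was higher by 0.53 ± 0.21 and PGLS, of the pentose phosphate pathway, by 0.13 ± 0.06.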

How the data were processed

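The authors trimmed single-end reads with Trimmomatic 0.33, aligned them to Sscrofa10.2 with STAR 2.5.2a and counted reads on exons per Entrez gene by strand with featureCounts of Subread 1.5.0, leaving out reads with several alignments. The deposited values are these raw counts, 1 file for each of 24 libraries. The entry without a gene identifier (0.613 to 1.62% of reads) was left out. Symbols came from a RefSeq table of Sscrofa11.1 matched on gene ID.

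Counts were TMM-normalized, filtered at 1 CPM in at least 3 libraries, and fitted with edgeR 4.0.16 (glmQLFit and glmQLFTest, R 4.3.3) on the 4 groups, sex and 5 surrogate variables from sva 3.50.0. FDR was taken over 7 contrasts together, and a DEG had an FDR under 0.4. Exact two-sided tests were run on log2 CPM (prior count 2) over all 4096 sign flips over 12 litters or all 924 reassignments of litters to diets. RPKM is CPM per kilobase of counted exon.

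At 6017336 to 9284355 reads, 3 counts correspond to 0.323 to 0.499 CPM, which covers counting error only. The labels give litters, so littermates pair the samples. Their deviations from group means had a mean correlation of 0.154 (9 of 12 pairs over 0.1), against 0.031 for 24 other pairs. Replicates are separate piglets. Alternatives were DESeq2 1.42.0, limma voom 3.58.1, RLE factors, no filter, other covariates, litter as a block, single cohorts and each litter left out.

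The enzymes and gene lists were chosen with earlier results of these data known. By rule, full statistics were given for enzymes with an FDR under 0.4 in any contrast or an unadjusted p under 0.05 for size, diet or their interaction, and for up to 6 further pathway genes a contrast. PC, PFKL, MDH2, GPI and the genes listed without the 2 AGA libraries fall outside this rule and were named after their values were seen, as was the choice of those libraries.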

Additional observations from a re-analysis of the deposited data

Results flagged for a closer look

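Within each group of 6, the highest and lowest library was compared with its nearest neighbour by Dixon's ratio at the 95% level, for every enzyme and isoenzyme ratio. Of 152 groups 20 had such a library, and chance marks about 1 in 20 independent groups. The 152 groups share the same 24 libraries and related genes, so the count is no test of an excess. AGA CON replicate 2 was far below its group for GPI (649 CPM), PFKP (103 CPM), PGAM1 (673 CPM), PKM (1920 CPM), PDHB (77.8 CPM), IDH3A (128 CPM) and MDH1 (36.3 CPM). Of the phosphofructokinase subunits in that library, PFKP held 44.6%, below the group, and PFKM 40.4%, above it. AGA HF replicate 4 was low for PGAM1 (711 CPM) and for the ENO2/ENO1 ratio (0.934). Both libraries had the fewest neuronal and the most astrocyte transcripts, and the part of these in the values was not tested.

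SGA CON replicate 4 was high for ENO2 (1816 CPM) and SUCLA2 (141 CPM). SGA CON replicate 6 stood apart for PFKM (99.4 CPM, low) and PDHB (102.6 CPM, high). SGA HF replicate 3 stood apart for PFKL (61.4 CPM, low), the PFKL share of phosphofructokinase (10.8%, low), PDHB (103 CPM, high) and SUCLA2 (151 CPM, high). SGA HF replicate 1 was low for HK1 (496 CPM).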

How the results depend on the processing

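In the fit of all 24 libraries 0 enzyme genes were called in any contrast, and 3, 2 and 1 were at an unadjusted p under 0.05 for size, diet and interaction. DESeq2 called 1 for diet and 1 for HF against CON in AGA, and had 2 under 0.05 for the interaction. The interaction had 0 under 0.05 with sex only, with sex and cohort, in either cohort alone, and with litter as a replicate block, where size had 5. With the block 0 were called for size or interaction. Counts summed by litter gave 1 for diet. FDR over each contrast alone called 2 for size (PKM and SUCLA2, against 7.35% of all genes). Cohort 1 alone gave 0 for size, and cohort 2 gave 5 for size and 4 for diet. Leaving out each litter in turn gave 2 to 6 under 0.05 for size, 1 to 11 for diet and 0 to 2 for interaction. Calls then ran from 0 to 4 for size (most without litter 5), 0 to 4 for diet (most without litter 4), 0 to 4 for SGA against AGA on HF and for HF against CON in AGA, and 0 to 1 for SGA against AGA on CON and for HF against CON in SGA. In the same fits the calls among all genes ran from 4 to 1109 for SGA against AGA on HF, 7 to 750 for HF against CON in AGA, 9 to 460 for SGA against AGA on CON and 5 to 391 for HF against CON in SGA. Chosen after seeing the data, leaving out AGA CON replicate 2 gave 4 calls and 11 under 0.05 for diet, and leaving out both libraries low in neuronal transcripts gave 1 call for diet, 1 in AGA, and 6 under 0.05 for diet. Exact tests over litter pairs, 4 genes in all, gave 0 in cohort 1, 2 in cohort 2 and 0 without litters 4 and 7, and the exact diet test gave 9 without those litters. Litters 4 and 7 were also chosen after seeing the data. ENO2 for diet reversed to -0.018 in cohort 2 and to -0.038 without AGA CON replicate 2, and ran from -0.028 to 0.084 as litters were left out. The cause was not tested. Ratios of plain counts were 3.14 for ENO2/ENO1, 0.827 for LDHB/LDHA and 23.6 for SUCLA2/SUCLG2. CS and SUCLG2 had the fewest reads, which limits their precision.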
